A study of Homo sapiens with 12 samples.

Results

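The clustered protocadherins are the genes whose symbols begin with PCDHA, PCDHB or PCDHG and that lie on chromosome 5 of the human genome. Matching those symbols to the gene IDs of the count files found 60 genes among 63925, of which 53 are protein-coding and 7 are not. The alpha cluster held 16 of them, with the pseudogene PCDHA14. The beta cluster held 19, with the pseudogenes PCDHB17P, PCDHB18P and PCDHB19P, and the gamma cluster held 24, with PCDHGB8P and PCDHGB9P. The remaining member is PCDHB1-AS1, an antisense RNA beside the beta cluster. On GRCh38 the members run from base 140786136 to base 141512981 of chromosome 5, and all but the antisense RNA lie on the plus strand.

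Clustered protocadherins are cell surface adhesion proteins of neurons. Each alpha or gamma transcript joins 1 variable exon, which has a promoter of its own and encodes the outside of the protein, to constant exons at the end of the cluster. Each beta gene is a single exon with its own promoter and no constant exon. A neuron uses a few of these promoters, chosen largely at random, while the C-type genes at the end of the alpha and gamma clusters are used more regularly. The choice involves DNA methylation and loops between promoters and enhancers held by CTCF and cohesin. The resulting mix of proteins gives a neuron a surface identity that serves self-avoidance of its branches.

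The libraries came from neural cultures grown for 10 weeks by dual SMAD inhibition from the human embryonic stem cell lines H9 and H1. Cultures received 1 µM dexamethasone, a synthetic glucocorticoid, or its DMSO vehicle for 6 h, and polyadenylated RNA was sequenced from 3 sister cultures per line and treatment. All 4 groups had been kept in medium with BDNF, GDNF, ascorbic acid and cyclic AMP, and the stem cells had been grown on mouse embryonic fibroblasts. Each line stands for 1 genotype. Sister cultures measure the spread between dishes, so a difference between the lines cannot be told apart from a difference between their differentiations.

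The promoters of the beta genes carry a shared sequence, shown here for the genes on which the comparison of the lines turns. RefSeq promoter windows on GRCh38.p14, from 250 bases before the start to 50 after it, matched 47 of the 60 members and 14 of the 19 beta genes. The longest word found on the gene strand in at least 9 in 10 of those 14 windows was GGTGGCGCT, present in 13. PCDHB1 was the exception. The word was in 0 of 13 alpha windows and 0 of 20 gamma windows, and in 0.501% of the 35116 windows of all genes when both strands were searched. It ends in CGCT, the core of the conserved sequence element of protocadherin promoters, a CTCF site. That core alone was in 70.0% of all windows on either strand. The word was picked because these windows share it, so its frequency in them is a description. In the sequences below, all from the plus strand, capitals mark the word.
PCDHB2, chr5:141094510-141094569: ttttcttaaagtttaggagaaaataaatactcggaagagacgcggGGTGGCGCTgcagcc
PCDHB3, chr5:141100359-141100418: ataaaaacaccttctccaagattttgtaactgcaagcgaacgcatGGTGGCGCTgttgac
PCDHB5, chr5:141135145-141135204: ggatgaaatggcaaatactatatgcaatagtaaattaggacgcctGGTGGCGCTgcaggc
PCDHB7, chr5:141172532-141172591: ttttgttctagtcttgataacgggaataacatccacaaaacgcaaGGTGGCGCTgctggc
PCDHB15, chr5:141245280-141245339: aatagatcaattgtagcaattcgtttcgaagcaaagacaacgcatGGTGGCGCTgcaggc

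In the 13 windows the word began between 2 and 84 bases before the RefSeq start. It began 60 bases before the start of PCDHB2, 69 before PCDHB3, 67 before PCDHB7, 70 before PCDHB15 and 16 before PCDHB5. These distances depend on the start used. In GENCODE 29 PCDHB2 starts at base 141094578, where its printed sequence ends at 141094569. PCDHB5 starts there at base 141135218, where its printed sequence ends at 141135204. By those starts the word is not nearer to PCDHB5 than to PCDHB2. A longer form, GGTGGCGCTGCA, was in 10 of the 14 windows and in 0.043% of all windows on either strand. PCDHB2, PCDHB5 and PCDHB15 hold the longer form. PCDHB3 and PCDHB7 do not.

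The count files do not show which alpha or gamma promoters these cultures used. Of the 60 members, 41 had 0 counts in all 12 libraries: 15 of 16 alpha genes, 23 of 24 gamma genes, and PCDHB16, PCDHB18P and PCDHB19P. The 2 exceptions were PCDHA1 and PCDHGA1, the first gene of the alpha cluster and of the gamma cluster. In the annotation each alpha gene and each gamma gene apart from the pseudogenes is a span that runs from its variable exon to the last constant exon, so all later genes lie inside the span of the first. Of the 40 members with no base outside the span of another gene on the same strand, 0 had a count. The other uncounted member, PCDHB16, had 39 such bases of 5001. These 41 genes are not short of sequence of their own, since 40 of them have more than 2000 exon bases that belong to no other gene, up to 10574 in PCDHA4.

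**Figure D1:**
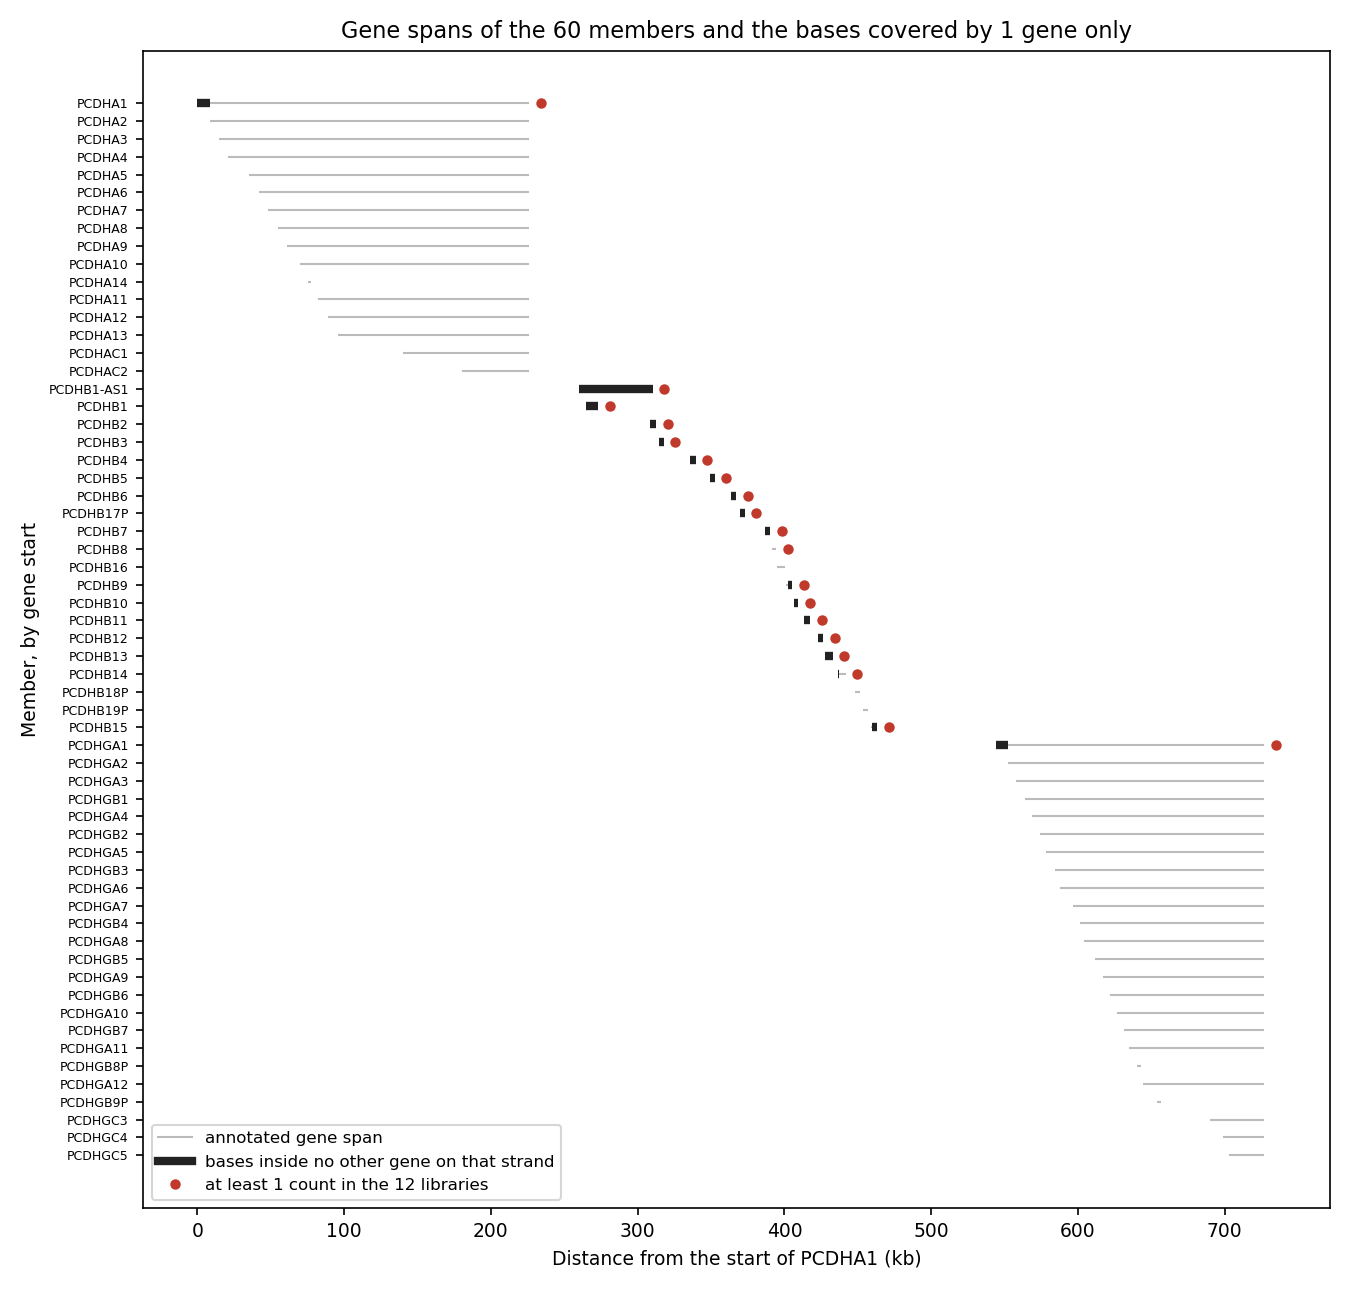
Annotated spans of the 60 members (thin lines), the bases of each span inside no other gene on the same strand (thick bars), and members with at least 1 count in the 12 libraries (dots), against distance in kb from the start of PCDHA1. In the alpha and gamma clusters, 1 gene each has thick bars and a dot; PCDHB8 and PCDHB16 have 59 and 39 free bases, too few to see.

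The same pattern held across the genome. Of 538 protein-coding genes whose span lies wholly inside the spans of other genes on their strand, 516 (95.9%) were at 0 in all 12 libraries. Among the 426 of these with at least 500 exon bases of their own, 407 (95.5%) were at 0. The share was 21.3% of 1097 genes that are covered only when both strands are pooled, and 9.45% of 16566 genes with a free stretch on both strands. Reads in such places were thus left out of nearly all of these genes, and a 0 there gives no upper limit on expression. The C-type genes PCDHAC1, PCDHAC2, PCDHGC3, PCDHGC4 and PCDHGC5 were all among them, with 0 counts in each of the 12 libraries.

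The single values left for the alpha and gamma clusters come from the stretch before the second gene begins. For PCDHA1 (ENSG00000204970.9, chr5:140786136-141012347) this stretch is 8719 bases of 226212, and it held 43 counts in all. The 3 H9 vehicle cultures had 2, 2 and 1 counts and the H9 dexamethasone cultures had 3, 0 and 7. The H1 vehicle cultures had 4, 1 and 3, and the H1 dexamethasone cultures had 8, 8 and 4. The groups overlapped, and PCDHA1 was too low to be tested.

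For PCDHGA1 (ENSG00000204956.5, chr5:141330571-141512981) the stretch is 8191 bases of 182411. Its level, in TMM-scaled CPM (counts scaled to the library's size), was 0.933, 0.919 and 0.952 in the H9 vehicle cultures and 1.04, 1.09 and 1.42 in the H9 dexamethasone cultures. It was 0.59, 0.764 and 0.961 in the H1 vehicle cultures and 0.695, 0.578 and 0.742 in the H1 dexamethasone cultures. H9 and H1 overlapped under vehicle and did not overlap under dexamethasone.

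The beta cluster, whose genes lie side by side, could be read gene by gene. Of its 19 members, 16 had a count and 12 lie wholly outside other genes on their strand, among them PCDHB2, PCDHB5 and PCDHB10. PCDHB15 keeps 87.2% of its span, PCDHB9 67.0%, PCDHB14 9.11% and PCDHB8 2.15%. PCDHB8 had 1, 2 and 1 counts in the H9 vehicle cultures and 0 in the other 9 libraries, with 59 countable bases.

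Sequence shared between beta genes also bears on these counts. Of the 75-base words in the transcripts of PCDHB2, 15.1% occur in another member, most often in PCDHB3. The share was 6.69% for PCDHB5, 5.12% for PCDHB7 and 7.47% for PCDHB15. It was highest, at 34.6%, for PCDHB8 and 29.1% for PCDHB10. Reads from such stretches may be lost or split, and the part of this in the levels was not tested.

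PCDHB2 was the leading beta isoform in both lines. Its level in CPM was 93.2, 95.6 and 63.3 in the H9 vehicle cultures and 99.3, 102 and 105 in the H9 dexamethasone cultures. The H1 vehicle cultures had 98.4, 99.6 and 101, and the H1 dexamethasone cultures 94.8, 96.3 and 108. Only H9 vehicle culture 3 stood away from the others. Of the counts on coding beta genes, PCDHB2 took 41.2% to 59.5% in H9 and 47.0% to 50.7% in H1. In the 5 H9 libraries other than vehicle culture 3 the share was 55.4% or more, above every H1 library.

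Levels per countable kilobase put the other isoforms in order. In H9, PCDHB2 stood at 22.6 ± 3.68 CPM per kb (SD, n = 6 libraries of both treatments), above all others in every library. PCDHB15 at 3.84 ± 0.562, PCDHB3 at 3.75 ± 1.57, PCDHB5 at 3.62 ± 0.940 and PCDHB10 at 3.55 ± 0.410 followed, and neighbours among these overlapped. The next, PCDHB14, had 1.40 ± 0.328. That level rests on 440 countable bases, 9.11% of the span, and on 6 to 24 counts per library, so its place is less sure in both lines. Outside H9 vehicle culture 3, PCDHB15 ranged from 3.83 to 4.24 and PCDHB3 from 2.93 to 3.32, so their overlap came from that culture.

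In H1 the order after PCDHB2 (24.2 ± 1.17 CPM per kb, SD, n = 6) was clear-cut down to PCDHB3, with no overlap between neighbours. PCDHB5 came next at 11.0 ± 0.908, then PCDHB15 at 6.60 ± 0.576, PCDHB10 at 3.75 ± 0.345 and PCDHB3 at 2.64 ± 0.221. Below PCDHB3, neighbours overlapped from PCDHB14 down to PCDHB6. PCDHB5 was thus the second isoform in H1 and one of 4 overlapping isoforms in H9.

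Among the 15 beta members with at least 0.4 kb countable, the 3 lowest per kilobase were the same in both lines. PCDHB7 had 0.434 ± 0.158 CPM per kb in H9 and 0.310 ± 0.055 in H1, and the pseudogene PCDHB17P 0.284 ± 0.127 and 0.214 ± 0.042. PCDHB1, the first gene of the cluster and the one whose promoter window lacks the shared word, was lowest of these, at 0.041 ± 0.024 in H9 and 0.011 ± 0.006 in H1. It had 13, 8 and 0 counts in the H9 vehicle cultures, 5, 10 and 13 in the H9 dexamethasone cultures, and 1 to 4 in each H1 library.

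**Figure D2:**
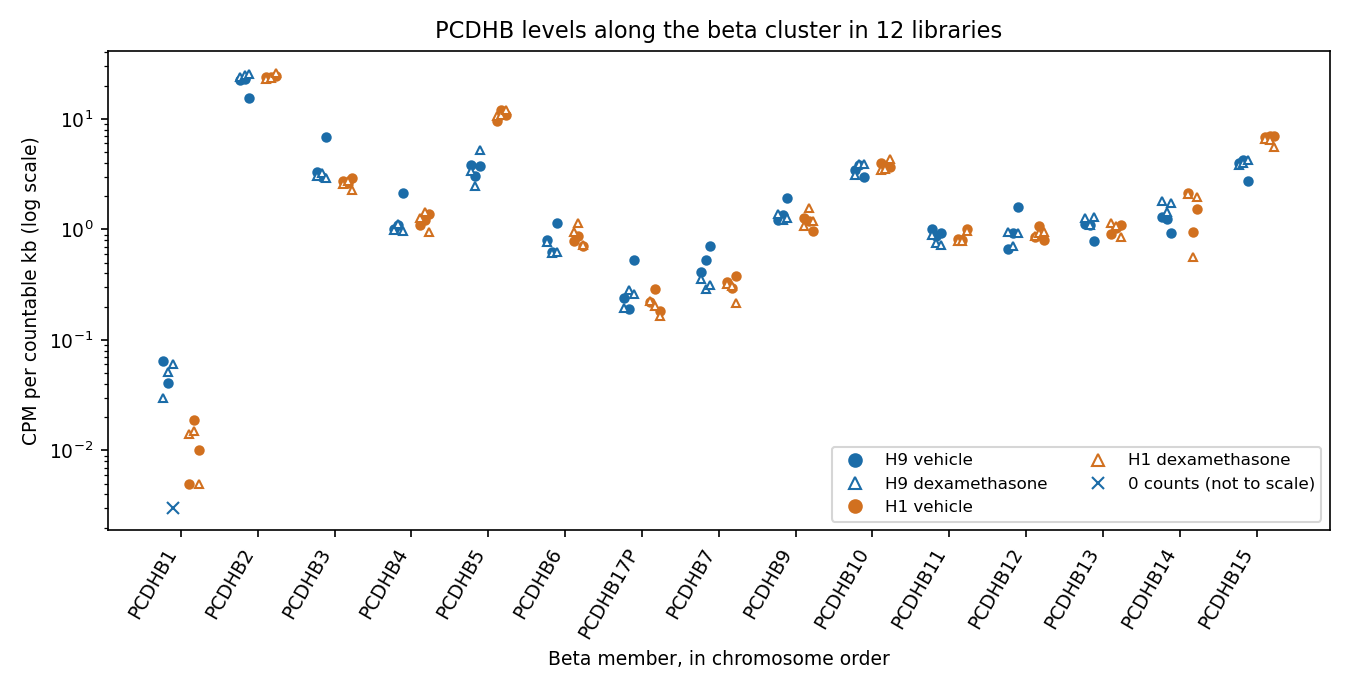
Level in CPM per countable kilobase (log axis) of the 15 beta members with at least 0.4 kb countable, in chromosome order, with 1 point per library. PCDHB2 is highest in all 12 libraries, the H1 libraries lie above the H9 libraries for PCDHB5 and PCDHB15, and a cross marks the H9 library with 0 counts of PCDHB1.

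The lines differed in a few beta isoforms, of which 2 were lower in H9 than in H1 under both treatments: PCDHB5, about 3.07-fold under vehicle, and PCDHB15, 1.90-fold. Of the 15 members tested under vehicle, 3 passed an adjusted p of 0.05 (edgeR's quasi-likelihood F-test, Benjamini-Hochberg over 17819 genes): PCDHB7 higher in H9, and PCDHB5 and PCDHB15 lower. All genes were called far more often, 46.9% in all, with 25.7% higher and 21.2% lower in H9. Of the members, 9 had a positive and 6 a negative log2 fold change, with a median of 0.09 against 0.03 over all genes.

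PCDHB5 (ENSG00000113209.8, chr5:141135218-141138625) had 13.0, 10.4 and 12.7 CPM in the H9 vehicle cultures and 32.7, 40.8 and 37.0 in the H1 vehicle cultures. The dexamethasone cultures had 11.6, 8.39 and 17.9 CPM in H9 and 36.0, 37.3 and 40.9 in H1. Every H1 library was above every H9 library. The log2 fold change of H9 against H1 was -1.62 ± 0.22 (SE) under vehicle, with an adjusted p of 0.000111 in the edgeR test, and -1.59 ± 0.22 under dexamethasone, with an adjusted p of 0.000115. As a share of the counts on coding beta genes, PCDHB5 held 7.24% ± 1.68 in H9 and 18.1% ± 1.12 in H1 (SD, n = 6).

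PCDHB15 (ENSG00000113248.5, chr5:141245349-141249365), the last gene of the beta cluster, had 14.1, 14.9 and 9.59 CPM in the H9 vehicle cultures and 24.1, 24.7 and 24.7 in the H1 vehicle cultures. Under dexamethasone it had 13.4, 13.9 and 14.8 CPM in H9 and 23.1, 22.6 and 19.4 in H1. Here too every H1 library was above every H9 library. Against H1 the log2 fold change was -0.92 ± 0.15 (SE) under vehicle, with an adjusted p of 0.000351 in the edgeR test, and -0.63 ± 0.15 under dexamethasone, with an adjusted p of 0.00442. Its share of the beta counts was 7.88% ± 0.871 in H9 and 11.2% ± 1.09 in H1 (SD, n = 6).

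PCDHB7 (ENSG00000113212.6, chr5:141172619-141176383) had 1.54, 2.01 and 2.65 CPM in the H9 vehicle cultures and 1.27, 1.11 and 1.44 in the H1 vehicle cultures. The groups did not overlap, by a narrow margin, and the log2 fold change was 0.67 ± 0.24 (SE) with an adjusted p of 0.0363 in the edgeR test. Under dexamethasone it had 1.33, 1.09 and 1.19 CPM in H9 and 1.20, 1.16 and 0.82 in H1, with an overlap and a log2 fold change of 0.18 (adjusted p = 0.594 in the edgeR test). The call rested on single libraries. It was lost without any one of the 3 H1 vehicle cultures, H9 vehicle culture 2 or 3, or H9 dexamethasone culture 3, in DESeq2 (adjusted p = 0.0681), without a count filter (adjusted p = 0.0892), and with the vehicle libraries alone (adjusted p = 0.0991).

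PCDHB3 lay just outside the threshold under vehicle. Its level was 11.2, 10.0 and 23.3 CPM in the H9 vehicle cultures against 9.20, 8.79 and 9.85 in H1, and 10.3, 11.0 and 9.82 in the H9 dexamethasone cultures against 8.65, 9.12 and 7.62 in H1. H9 was above H1 within each treatment, with H9 vehicle culture 3 far above the rest. The log2 fold change under vehicle was 0.66 ± 0.25 (SE), with an adjusted p of 0.0507 in the edgeR test and of 0.0426 in DESeq2. PCDHB2, the leading isoform, had a log2 fold change of -0.24 under vehicle (adjusted p = 0.160 in the edgeR test) and 0.03 under dexamethasone (adjusted p = 0.873). Without H9 vehicle culture 3 the vehicle value was -0.08 (adjusted p = 0.333).

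**Figure D3:**
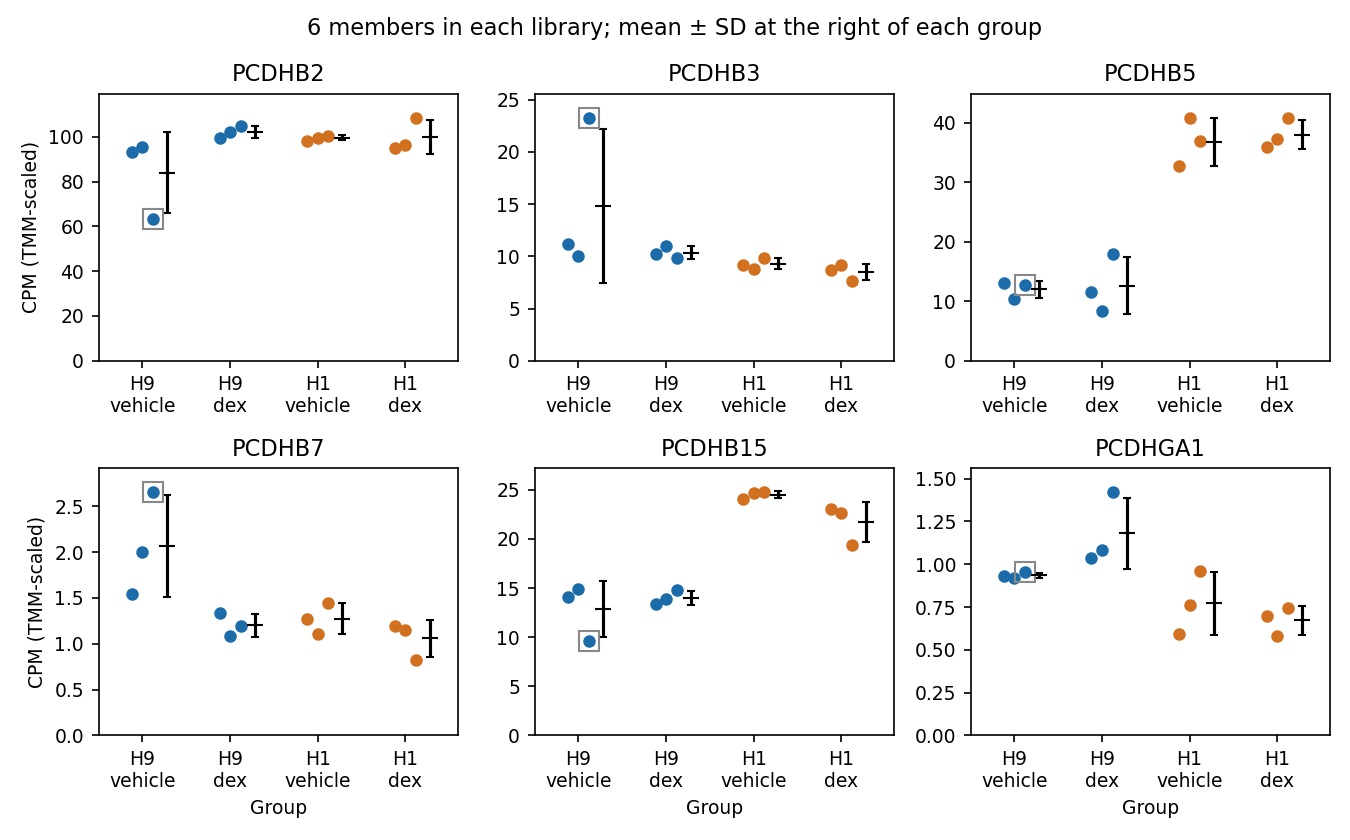
CPM scaled by TMM in each of the 12 libraries for 6 members, with the mean ± SD (n = 3) at the right of each group; a square marks H9 vehicle culture 3. PCDHB5 and PCDHB15 are higher in all 6 H1 libraries than in any H9 library, while PCDHB2, PCDHB3, PCDHB7 and PCDHGA1 overlap between the lines.

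Under dexamethasone 3 of the 15 members tested passed the same threshold between the lines. PCDHB5 and PCDHB15 were lower in H9 and PCDHGA1 was higher, against 43.6% of all genes called, 22.5% higher and 21.2% lower. The dexamethasone libraries are not those of the vehicle contrast, though the estimate of spread is shared. The log2 fold change of PCDHGA1 was 0.81 ± 0.24 (SE), with an adjusted p of 0.0164 in the edgeR test, against 0.27 under vehicle (adjusted p = 0.415). The edgeR test of the difference between these 2 values gave an adjusted p of 0.554. The PCDHGA1 call was lost without H9 dexamethasone culture 3 (adjusted p = 0.0817), without H1 dexamethasone culture 2 (adjusted p = 0.0629) and without a count filter (adjusted p = 0.051).

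PCDHB5 and PCDHB15 lie apart in the cluster, and the tested genes between them, from PCDHB6 to PCDHB14, had vehicle log2 fold changes from -0.38 to 0.67. Of these PCDHB7 passed the test, while PCDHB10 at -0.12, PCDHB11 at 0.09 and PCDHB13 at -0.01 did not pass the test.

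**Figure D4:**
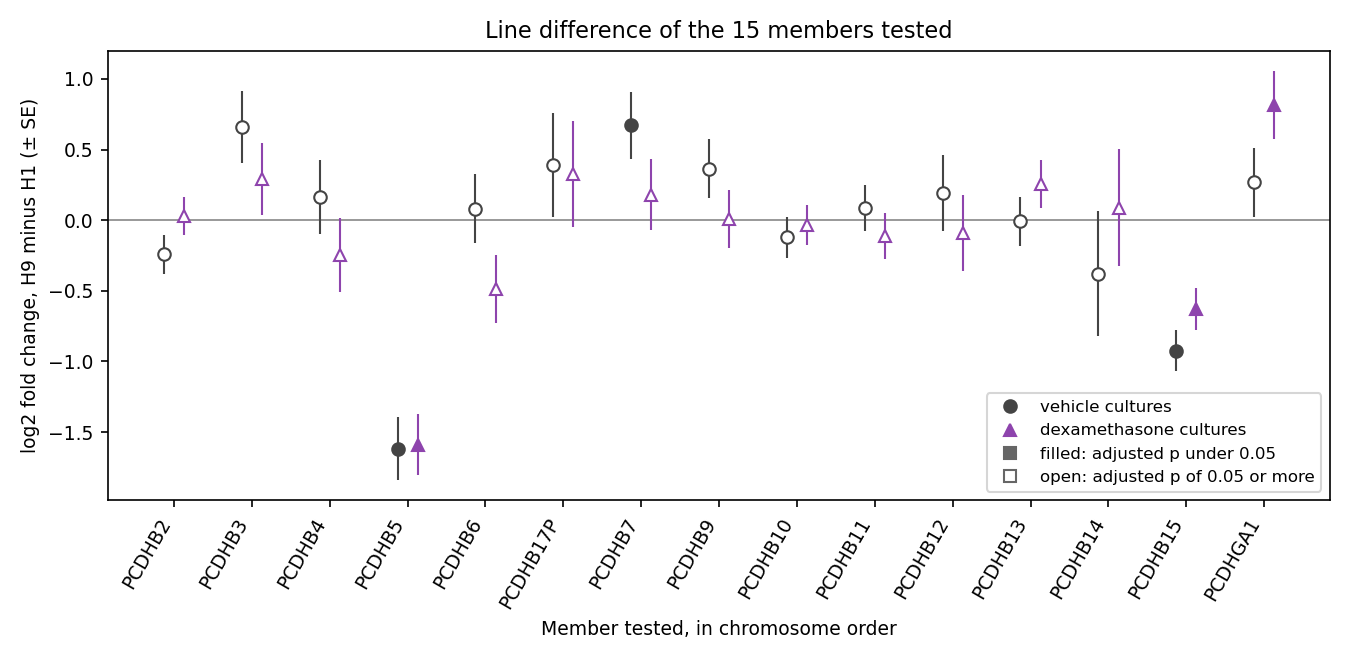
Log2 fold change of H9 minus H1 with its standard error for the 15 members tested, in chromosome order, under vehicle (circles) and dexamethasone (triangles), with filled symbols for an adjusted p under 0.05. PCDHB5 and PCDHB15 are filled and below 0 under both treatments, with PCDHB6 to PCDHB14 between them.

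Summed over the cluster, beta counts were lower in H9, with PCDHB5 and PCDHB15 carrying most of the gap. These 2 genes together had 25.8 ± 3.87 CPM in H9 and 60.6 ± 2.92 in H1 (SD, n = 6), a difference of -34.8, where all coding beta genes differed by -36.9 CPM. The other coding beta genes summed to 144 ± 7.54 CPM in H9 and 146 ± 4.42 in H1, and these ranges overlapped. The log2 of the summed CPM of coding beta genes was 7.41 ± 0.087 in H9 and 7.69 ± 0.040 in H1 (SD, n = 6), and every H1 library, at 7.64 or more, was above every H9 library, at 7.54 or less. The difference of -0.29 had an exact permutation p of 0.005, two-sided, with lines relabelled within treatment in 400 ways, which is the smallest p possible here (adjusted p = 0.015 over 3 measures). The gamma value, which is PCDHGA1 alone, differed by 0.55 the other way (exact permutation p = 0.02, adjusted p = 0.03).

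The evenness of isoform use in the beta cluster was taken as the effective number of isoforms, the exponential of the Shannon entropy of the shares of its coding genes. It was 5.50 ± 0.887 in H9 and 5.51 ± 0.206 in H1 (SD, n = 6; exact permutation p = 0.99, two-sided, with the same relabellings). One library set this value. H9 vehicle culture 3 had 7.26, while the other H9 libraries had 4.82 to 5.38 and the H1 libraries 5.12 to 5.71. Without it H9 was lower by 0.34 (exact permutation p = 0.005 over 200 relabellings).

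**Figure D5:**
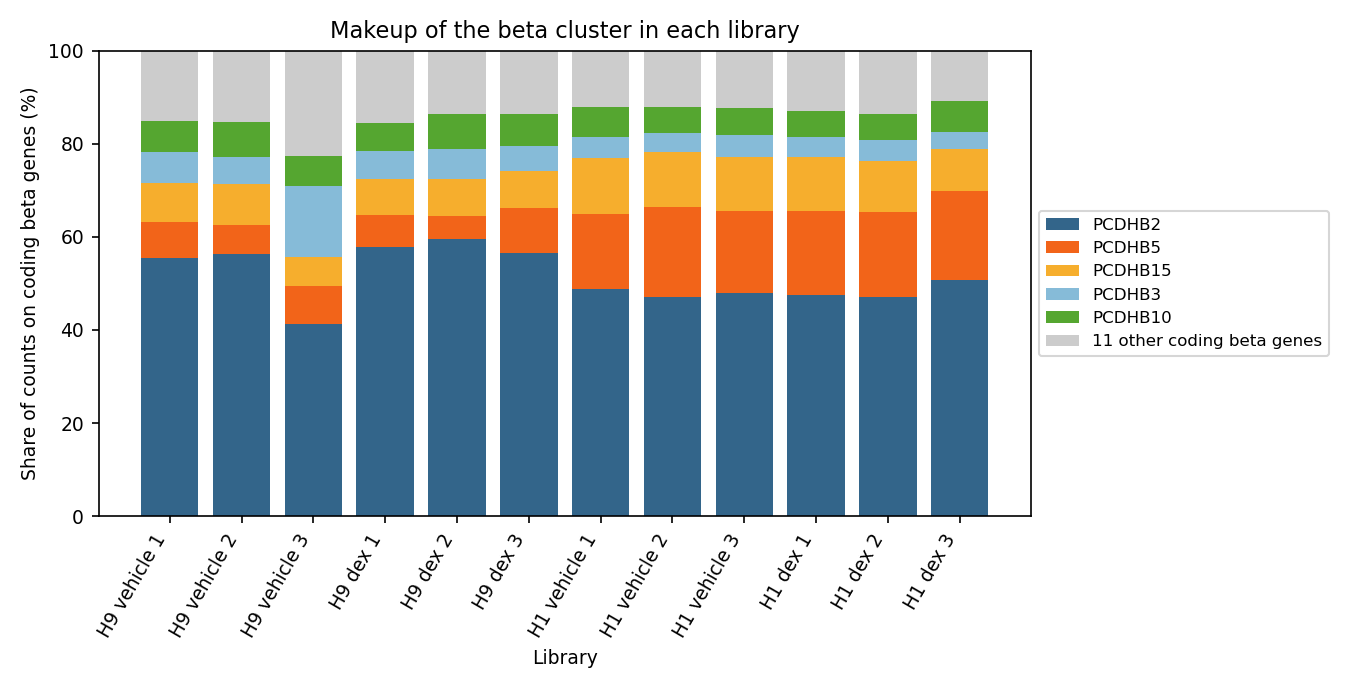
Share of the counts on coding beta genes held by PCDHB2, PCDHB5, PCDHB15, PCDHB3, PCDHB10 and the other 11 genes, in percent, for each of the 12 libraries. PCDHB5 takes 4.89% to 9.64% in H9 and 16.2% to 19.3% in H1, and H9 vehicle culture 3 has the smallest PCDHB2 share, at 41.2%.

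H9 vehicle culture 3 stood apart from its sisters in the whole library and in the beta cluster. It had the lowest total count, 14751168 against up to 27505804 elsewhere, and a mitochondrial share of 0.607% where its 5 fellow H9 libraries had 4.80% to 5.64%. Over all genes with enough counts, its mean squared standardised difference (1 for sampling noise) from its sisters was 175 and 167. Other pairs of sister libraries had 4.08 to 10.4. Of 14 beta members with at least 100 counts, 7 were above and 5 below all 5 other H9 libraries. The same count over all genes was not made, so these numbers do not set the beta cluster apart from other genes. PCDHB3 was 2.23 times their mean, PCDHB4 2.06 times and PCDHB17P 2.27 times, whereas PCDHB2 was 0.640 times and PCDHB15 0.675 times. PCDHB5 was at 1.04 times. Without this culture the vehicle log2 fold change was -1.66 for PCDHB5, -0.76 for PCDHB15 and 0.19 for PCDHB3 (adjusted p = 0.172 in the edgeR test). Under dexamethasone the calls then numbered 6 rather than 3, adding PCDHB1, PCDHB3 and PCDHB6. Calls over all genes rose as well in that fit, to 11697 of 18098 from 7777 of 17819.

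No tested member passed the threshold for dexamethasone against vehicle. Called members were 0 of 15 over both lines, in H9, in H1 and for the difference of the 2 effects, where 0.101%, 0.0673%, 0.0505% and 0% of all genes were called. At an unadjusted p under 0.05 in the edgeR test, PCDHB7 was the 1 member of 15 counted over both lines and in H9, and none was counted in H1 or for the difference. The shares of all genes at that p were 7.49%, 16.3%, 2.95% and 7.46%, so the members' counts do not stand above them. DESeq2 also called 0 members in each. Over both lines the log2 fold change ranged from -0.51 for PCDHB7 to 0.25, with a smallest adjusted p of 0.579. For PCDHB5 it was 0.06 ± 0.15 (SE), for PCDHB15 -0.03 ± 0.10 and for PCDHB2 0.14 ± 0.10.

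Other transcripts inside the clusters gave a second reading of the locus. An antisense RNA, AC005609.5 (chr5:140788457-140822193, minus strand), crosses the variable exons at the start of the alpha cluster. Its level was 10.5, 10.4 and 8.0 CPM in the H9 vehicle cultures and 22.4, 21.5 and 19.9 in the H1 vehicle cultures. Under dexamethasone it was 13.4, 11.1 and 11.1 CPM in H9 and 22.1, 26.4 and 19.6 in H1. All H1 libraries were above all H9 libraries. Its log2 fold change was -1.13 ± 0.15 (SE) under vehicle, with an adjusted p of 7.9e-05 in the edgeR test, and -0.94 ± 0.15 under dexamethasone, with an adjusted p of 0.000283. Of the other transcripts there, 2 passed the threshold under vehicle, where 46.9% of all genes were called. The tested transcripts AC005609.3, AC005609.4, AC005618.1, AC244517.1, AC244517.3, AC244517.10 and AC244517.11 did not pass. AC244517.6, a processed transcript that overlaps PCDHB16 and PCDHB9, was higher in H9 by 0.91 on the log2 scale. That call was lost without H9 vehicle culture 1 (adjusted p = 0.0908), without H1 vehicle culture 1 (adjusted p = 0.0612) and in DESeq2 (adjusted p = 0.0666). It was also lost without a count filter (adjusted p = 0.0684), and the filter of CPM at least 1 in at least 3 libraries left the gene untested. Under dexamethasone AC244517.6 was higher in H9 by 0.72 (adjusted p = 0.0433 in the edgeR test). Among other settings, DESeq2 lost the dexamethasone call (adjusted p = 0.132), as did leaving out any one of the 3 H9 dexamethasone cultures. TAF7 is a general transcription factor gene between the beta and gamma clusters. Its log2 fold change was -0.44 under vehicle (adjusted p = 0.035 in the edgeR test) and -0.14 under dexamethasone (adjusted p = 0.492). The vehicle call of TAF7 was lost with the vehicle libraries alone (adjusted p = 0.143). It was lost without any one of the 3 H1 vehicle cultures (adjusted p = 0.0688 to 0.0894). It was also lost without H9 dexamethasone culture 1 (adjusted p = 0.0508) or 3 (adjusted p = 0.0503). Without H9 vehicle culture 3, which had 89.6 CPM of TAF7 against 150 and 142 in its sisters, the vehicle value was -0.24. The vehicle call of TAF7 was kept in that fit (adjusted p = 0.00377 in the edgeR test). TAF7 then also passed under dexamethasone, at -0.14 (adjusted p = 0.037 in the edgeR test). Vehicle calls over all genes rose as well in that fit, to 10608 of 18098 from 8350 of 17819.

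The cultures of the 2 lines also differed in their cell markers. In bulk RNA, fewer cells of a type and less RNA per cell cannot be told apart. Over all genes 25.7% were called higher and 21.2% lower in H9 under vehicle. Proliferation markers (8 genes, among them TOP2A and CDK1) summed to 80.2 to 130 CPM over the 6 H9 libraries and 530 to 620 over the 6 from H1, and all 8 were lower in H9 under vehicle. Mesenchyme markers (8 genes, among them COL1A1) summed to 210 to 381 CPM in H9 and 1445 to 3271 in H1, with COL1A1, COL1A2, COL3A1 and POSTN lower in H9 and TWIST1 higher. Neuron markers (12 genes) summed to 6204 to 7279 CPM in H9 and 4242 to 4818 in H1, with 6 higher in H9, NEFL and DCX among them, and ELAVL4 lower. Of these 28 markers none was at 0 in all libraries. The astrocyte markers ALDH1L1, AQP4, SPARCL1 and SLC1A3, of 8, and all 5 tested serotonin neuron markers, such as TPH2, were higher in H9. The part of cell makeup in the differences of PCDHB5 and PCDHB15 was not tested.

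The pathway around the clusters was read from lists of its other genes. Of 27 tested regulators of protocadherin promoter choice, 14 were lower and 1 higher in H9 under vehicle, with a median log2 fold change of -0.35 against 0.03 for all genes. Called genes were 55.6% of this list, against 46.9% of all genes, with 25.7% higher and 21.2% lower. UHRF1, which directs maintenance of DNA methylation and is high in dividing cells, was lower by 2.42, and the de novo methyltransferase gene DNMT3B by 0.66 on the log2 scale. The other methyltransferase genes of the list, DNMT1 at -0.17 and DNMT3A at 0.36, did not pass the test. Of the TET genes in the list, TET1 at -0.38 and TET2 at -0.56 passed, and TET3 at -0.28 did not. CTCF itself had a log2 fold change of -0.35 (adjusted p = 0.0398 in the edgeR test), and the cohesin genes SMC3 and STAG1 -0.54 and -0.57. The other cohesin subunit genes of the list did not pass the test, with -0.29 for RAD21, 0.03 for SMC1A and -0.17 for STAG2. Among the listed genes of cohesin's partners, NIPBL at -0.45, WAPL at -0.49 and PDS5A at -0.50 passed, and PDS5B at 0.09 did not. ZNF274, a zinc finger repressor gene, was higher by 0.88. LRIF1, a partner of SMCHD1, was lower by 0.95.

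Non-clustered protocadherins were mostly higher in H9. Under vehicle 6 of the 8 tested were higher in H9 than in H1 and 0 lower, with a median log2 fold change of 0.80. Over all genes 25.7% were called higher and 21.2% lower. PCDH19 had a log2 fold change of 1.54, PCDH10 1.09, PCDH1 1.08 and PCDH8 0.92. Under dexamethasone 7 of 8 were higher, against 22.5% of all genes. Of 20 tested intracellular partners and effectors, 3 were higher in H9 under vehicle (RET, PRKCA and AXIN1) and 3 lower, ADAM10 and MARCKS among them. That is 30% of the list, where 46.9% of all genes were called. ADAM10, a protease that cuts protocadherins at the membrane, had a log2 fold change of -0.72. Among 8 tested large cadherins 2 were higher (FAT2 and CELSR1) and 3 lower (FAT4, CELSR3 and DCHS1), which is 62.5% against 46.9% of all genes. Of 16 tested genes flanking the clusters 3 were higher (PCDH1, RELL2 and FCHSD1) and TAF7 was lower, which is 25% against 46.9% of all genes.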

How the data were processed

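The authors deposited raw read counts per gene, 1 file per library and 12 in all, made with STAR 2.5.3a and HTSeq on hg38 or GRCh38.p10, per the submitters' processing notes. Neither the annotation release nor the strand setting nor the counting mode is given in the sources used here. Positions came from GENCODE 29, where all 60 members have the same ID version. Groups came from the labels. Members and gene lists were chosen with earlier results of these data known. Total counts ran from 14751168 to 27505804, and members held 0.0156% to 0.0218% of them. A base was called countable where no other gene on that strand spans it. Genes were filtered with filterByExpr, scaled by TMM and tested in edgeR 4.0.16 with 1 mean per group over 12 libraries (8 residual degrees of freedom) and Benjamini-Hochberg adjustment over 17819 genes at 0.05. The script was tested on simulated data. DESeq2 1.42.0 and other settings were alternatives. Of 9 cluster measures set up, 6 on the alpha and gamma clusters were not tested. The alpha measures could not be computed in the library where PCDHA1 was 0. The gamma measures of isoform use were fixed in advance, since PCDHGA1 alone had counts. The p-values of measures were therefore adjusted over 3 and not over the 9 set up. Members described in each library are the C-type genes, those called between the lines under vehicle at a mean of at least 1 CPM, the leading member of each cluster, and members called under dexamethasone. PCDHB3, PCDHB1, PCDHB8, AC005609.5 and AC244517.6 were added after their values were seen. From other lists up to 4 called genes with the largest change are named, and CTCF, SMC3, STAG1, STAG2, RAD21, SMC1A, MARCKS, ELAVL4, COL3A1 and DCHS1 were added after their values were seen. NIPBL, WAPL, PDS5A, PDS5B, DNMT1, DNMT3A, TET1, TET2 and TET3 were added in the same way. No pair of sister libraries agreed within sampling noise. A gene of the list of partners and effectors is not reported here.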

Additional observations from a re-analysis of the deposited data

How the results depend on the processing

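Under vehicle the number of called members was 2 to 4 when any 1 library was left out, 3 with RLE size factors, without a count filter, with a filter of CPM at least 1 in at least 3 libraries and in DESeq2, and 2 with the vehicle libraries alone. PCDHB5 and PCDHB15 were called in each of these. The other calls changed: PCDHB7 was lost without a count filter and in DESeq2, and DESeq2 called PCDHB3. Under dexamethasone the number was 2 to 6 when any 1 library was left out, with 6 without H9 vehicle culture 3. In that run 11697 of 18098 genes were called in all, against 7777 of 17819 in the main fit. The number was 3 under the other alternatives, and PCDHB5 and PCDHB15 were always among the calls. PCDHGA1 was not among the 3 without a count filter. The calls for dexamethasone against vehicle stayed at 0 in each alternative. The log2 fold change of PCDHB5 under vehicle ranged from -1.71 to -1.52, and that of PCDHB15 from -1.04 to -0.76, when 1 library was left out. The beta total differed by -0.30 to -0.26 and the PCDHGA1 value by 0.47 to 0.64 in the same runs. The effective number differed by -0.34 to 0.16, and passed 0.05 in an exact permutation test only without H9 vehicle culture 3. Counted per countable kilobase it differed by 0.09, with pseudogenes by 0.03, and with only members whose span is mostly countable, an alternative chosen after seeing the data, by -0.03. The culture numbers do not pair the samples, as correlations of same-numbered deviations ran from -0.159 to 0.179. With a replicate block the vehicle calls were 2 and the dexamethasone-culture calls 3, and PCDHB7 was lost (adjusted p = 0.0542). With same-numbered cultures paired in 64 sign flips, the PCDHGA1 difference of 0.55 had an exact p of 0.0625 and the beta total an exact p of 0.0312, the smallest these flips allow. Depth limits PCDHA1 and PCDHB1, with few counts per library. PCDHB8 had few counts too, with 59 of its 2740 bases countable. For alpha and gamma genes other than PCDHA1 and PCDHGA1, depth is not the limit, since no base of theirs was countable.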
